A study of Mus musculus with 24 samples.

Results

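Oxidative phosphorylation was examined through 84 genes for subunits of the mitochondrial respiratory chain and ATP synthase, out of 18193 genes measured in amygdala and hippocampus. The genes were chosen by symbol, with 36 in complex I (Nduf genes), 4 in complex II (Sdh genes), 9 in complex III (Uqcr genes and Cyc1), 17 in complex IV (Cox4 to Cox8 genes), 17 in complex V (Atp5 genes) and Cycs, the gene of cytochrome c. Ndufa4 was counted in complex I by its symbol, although its protein is now known as a subunit of complex IV. The 84 genes were read by 174 of 45037 probe sets, and each gene is represented by its brightest probe set unless another is named.

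The 24 Affymetrix arrays held RNA of male mice from a high freezing line (line 25) and a low freezing line (line 24), bred for the time spent motionless in a chamber that had been paired with foot shock. The 4 groups of 6 arrays were amygdala of the high line, amygdala of the low line, hippocampus of the high line and hippocampus of the low line. Each line is a single breeding line, so a difference made by selection and one made by drift between the lines cannot be told apart. Whether an array held RNA of 1 animal or of several is not stated in the labels, so p-values measure the spread between arrays, which may be technical.

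In oxidative phosphorylation, complexes I and II pass electrons from NADH and succinate to ubiquinone, complex III passes them to cytochrome c, and complex IV passes them to oxygen. Complexes I, III and IV pump protons, and complex V, the ATP synthase, uses the resulting gradient to make ATP. Neurons depend on this pathway for most of their ATP, and all complexes except complex II combine subunits encoded in the nucleus and in mitochondrial DNA.

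Levels are log2(intensity + 16), a difference of levels is therefore a log2 ratio, and a gene was called when its Benjamini-Hochberg adjusted p from limma, taken over all 45037 probe sets, was under 0.05. Of the 84 genes, 73 had a mean level of 8 or more and 11 lay below 8, where the signal is dim and the spread wide. The median within-group SD was 0.08 for the brighter genes and 0.33 for the dim ones. The dim genes were Ndufb1, Ndufb4, Ndufa4l2, Cox4i2, Cox6a2, Cox6b2, Cox7a1, Cox7b2, Cox7c, Cox8b and Cox8c. Dim describes the signal of the probe set used, and whether it reads the main transcript of the gene was not tested. Array medians lay between 43.3 and 55.6 in linear intensity, and arrays of 1 group correlated at 0.953 to 0.979 over probe sets. Hippocampus array 7 of the high line had the highest array median, and on amygdala arrays 7 and 8, also of the high line, the ratio of the 5′ to the 3′ actin control was 0.301 and 0.339, against 0.497 to 0.630 on the other amygdala arrays.

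Regional markers were read beside the subunits. In amygdala, 8 of 10 amygdala markers were called higher and 9 of 10 hippocampus markers were called lower, against 17% higher and 13.1% lower over all genes. The marker lists were chosen with earlier results of these data known, so the counts are no independent check of the dissection. Striatal markers were also called higher in amygdala, for 8 of 8 genes, with a summed intensity of 4461 to 8330 on amygdala arrays and 1065 to 1294 on hippocampus arrays. Their part in the tissue differences below was not tested.

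The first question is how the subunits differ between the tissues. Amygdala had lower levels than hippocampus for 58 of the 84 genes, with a median difference of -0.08. The 58 became 54 when each array was centred on its median and 50 after quantile normalization. Of the 84 genes, 31 were called, 6 higher and 25 lower in amygdala. Over all 18193 genes the called share was 30.1%, of which 17% were higher and 13.1% lower. Among the 1119 genes with a mean level of 10 or more, which include most subunit genes, it was 55.8%, with 22.1% higher and 33.7% lower, so the subunits were not called more often than other bright genes. The bright genes had a median difference of -0.04, and 57.6% of them were lower in amygdala. In bulk tissue, fewer cells of a type and less RNA per cell cannot be told apart.

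**Figure D1:**
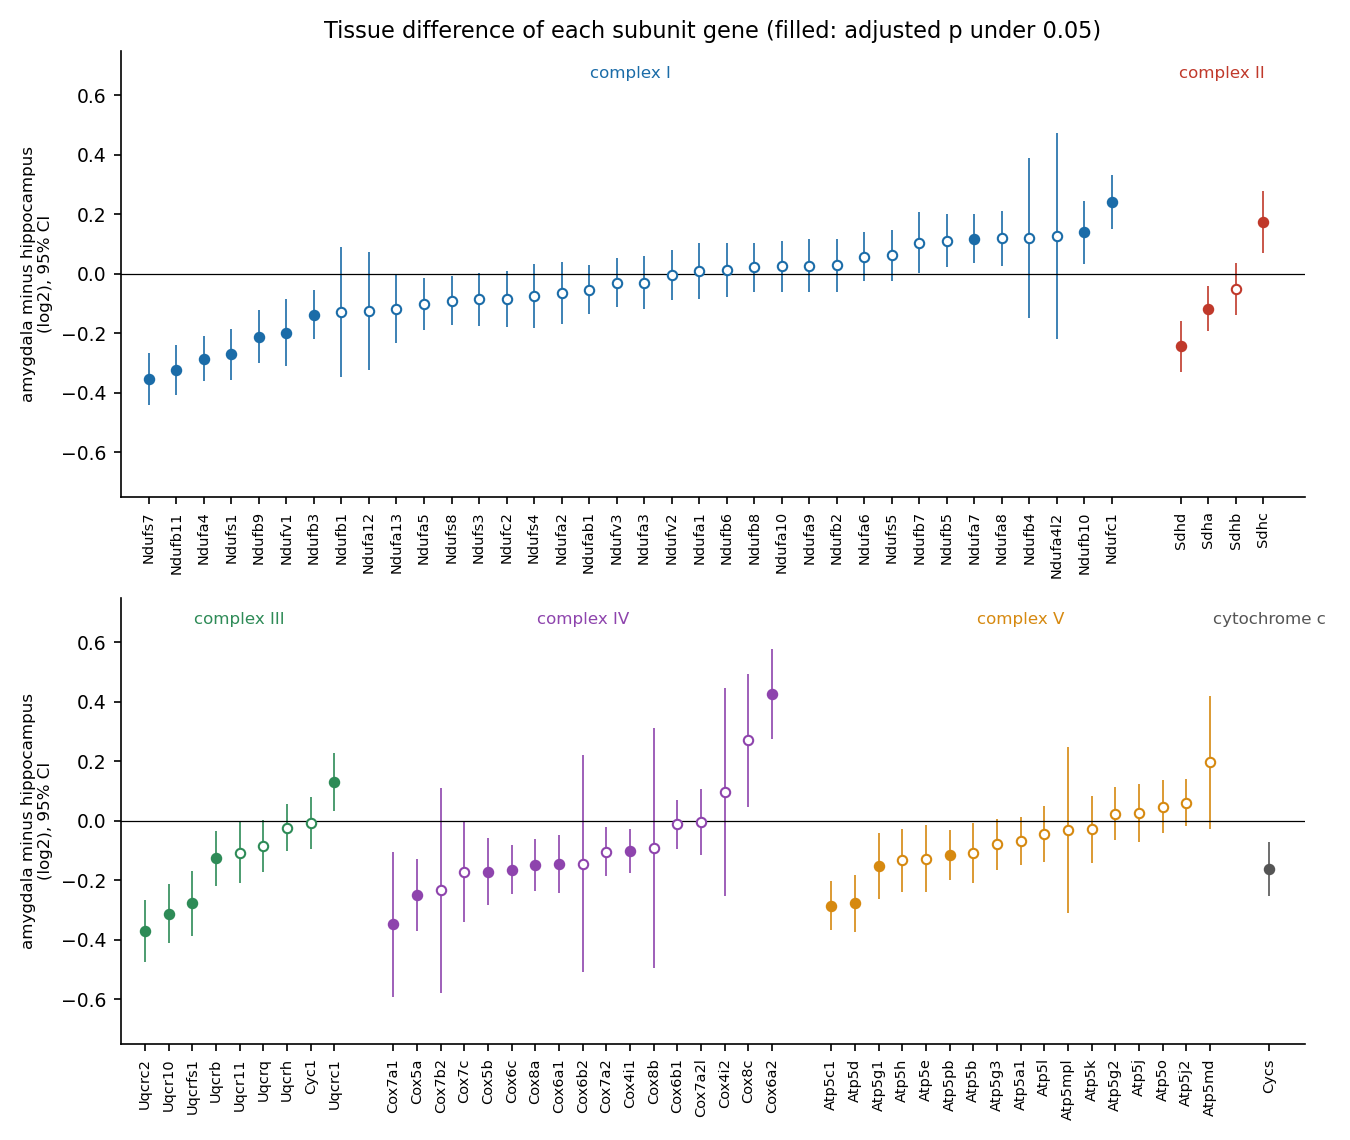
Difference between amygdala and hippocampus for each of the 84 subunit genes, in log2 with the 95% confidence interval of the limma fit over 24 arrays, ordered by difference within each complex. Filled points were called, and most filled points lie below 0, between -0.10 and -0.37. The filled points above 0 are Cox6a2, Ndufc1, Sdhc, Ndufb10, Uqcrc1 and Ndufa7.

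In complex I, 7 genes were lower and 3 higher in amygdala, of 36. Ndufs7, the iron-sulfur subunit next to the ubiquinone site, had a lowest, median and highest level of 10.24, 10.36 and 10.53 in amygdala, against 10.62, 10.71 and 10.80 in hippocampus. The difference was -0.36 ± 0.04 (SE, 12 arrays each, limma adjusted p = 5.2e-07), and no amygdala array reached a hippocampus array. A second probe set for Ndufs7, at a mean level of 10.12, gave 0.02 (adjusted p = 0.788), so the call rests on the brighter probe set.

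Ndufb11, an accessory subunit of the membrane arm, had 11.06, 11.21 and 11.35 in amygdala, against 11.39, 11.52 and 11.61 in hippocampus. Its difference was -0.32 ± 0.04 (SE, limma adjusted p = 1.1e-06), the groups did not overlap, and both further probe sets of the gene were also lower and called, by -0.28 and -0.14. Ndufs1, the largest core subunit, which carries iron-sulfur clusters in the arm that oxidises NADH, had 9.66, 9.75 and 9.88 in amygdala, against 9.94, 10.01 and 10.15 in hippocampus. This was a difference of -0.27 ± 0.04 (SE, limma adjusted p = 1.7e-05), again without overlap.

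Ndufa4 had 11.39, 11.45 and 11.60 in amygdala, against 11.66, 11.76 and 11.83 in hippocampus, a difference of -0.29 ± 0.04 (SE, limma adjusted p = 1.3e-06). It was a further gene whose tissues did not overlap. Ndufv1, which binds NADH and its flavin cofactor, had 10.53, 10.67 and 10.97 in amygdala, against 10.75, 10.89 and 11.05 in hippocampus. Its difference was -0.20 (limma adjusted p = 0.0083) with overlapping arrays, and its other probe sets gave -0.03 and -0.01. Ndufb9 and Ndufb3, both membrane arm subunits, were called lower by -0.21 and -0.14, and a second probe set of Ndufb9 as bright as the first gave -0.01 (adjusted p = 0.865).

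Ndufc1, a small membrane arm subunit, went the other way. It had 11.26, 11.34 and 11.51 in amygdala, against 10.96, 11.12 and 11.27 in hippocampus, a difference of 0.24 ± 0.04 (SE, limma adjusted p = 0.000155). The ranges met only at their edges. Ndufb10 (0.14, adjusted p = 0.0464) and Ndufa7 (0.12, adjusted p = 0.0298) were also called higher but close to the threshold, and they lost the call in 19 and 7 of 33 alternative settings. The complex I median was -0.03 as deposited and 0.01 after quantile normalization, so complex I as a whole had no settled direction.

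All 4 subunits of succinate dehydrogenase, complex II, were measured. The membrane anchors moved in opposite directions. Sdhd had 9.01, 9.10 and 9.33 in amygdala, against 9.24, 9.35 and 9.53 in hippocampus (difference -0.24, limma adjusted p = 6.1e-05). Sdhc had 9.57, 9.76 and 9.95 in amygdala, against 9.48, 9.57 and 9.73 in hippocampus (difference 0.17 ± 0.05 SE, limma adjusted p = 0.0121), and its second probe set was called higher as well, by 0.25. For both anchors the arrays of the tissues overlapped. Sdha, the flavoprotein that oxidises succinate, was called lower by -0.12 (adjusted p = 0.0200), and Sdhb, the iron-sulfur subunit, differed by -0.05 and was not called (adjusted p = 0.411).

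In complex III, 4 genes were lower and 1 higher, of 9. Uqcrc2, a core protein of the matrix side, had 10.94, 11.07 and 11.26 in amygdala, against 11.35, 11.45 and 11.64 in hippocampus. The difference was -0.37 ± 0.05 (SE, limma adjusted p = 3.5e-06), or 1.29-fold lower in amygdala, with no overlap, and its other probe set gave -0.36 (adjusted p = 3.6e-07). Its partner core protein Uqcrc1 was called higher by 0.13 (adjusted p = 0.0456), with 10.19, 10.33 and 10.48 in amygdala against 10.00, 10.21 and 10.43 in hippocampus, and this call was lost in 21 of 33 alternative settings.

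Uqcrfs1, the Rieske iron-sulfur protein that takes electrons from ubiquinol, had 9.96, 10.11 and 10.31 in amygdala, against 10.18, 10.37 and 10.59 in hippocampus (difference -0.28 ± 0.05 SE, limma adjusted p = 0.000289). Uqcr10, a small accessory subunit, had 9.99, 10.21 and 10.34 in amygdala, against 10.33, 10.49 and 10.65 in hippocampus (difference -0.31 ± 0.05 SE, limma adjusted p = 2.0e-05). The Uqcr10 difference ranged from -0.33 to -0.13 over 33 alternative settings, all with a call. Both genes overlapped between the tissues, Uqcr10 only by the edges of its ranges. Cyc1, the cytochrome c1 subunit that hands electrons on, differed by -0.01 and was not called. Uqcrb, a ubiquinone-binding protein, was called lower by -0.13 (adjusted p = 0.0367) at its brightest probe set, whereas another probe set was called higher by 0.16 (adjusted p = 0.0216), so its direction depended on the probe set.

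In complex IV, all 9 genes at a level of 8 or more were lower in amygdala as deposited, and 6 of them were called. After centring, and likewise after quantile normalization, 7 of the 9 were lower, and 3 and 2 of them were called. Cox5a, a matrix-side subunit, had 11.67, 11.97 and 12.26 in amygdala, against 12.05, 12.20 and 12.42 in hippocampus (difference -0.25 ± 0.06 SE, limma adjusted p = 0.0021), with overlapping arrays. Cox5b, Cox6c, Cox8a and Cox6a1 were called at -0.17, -0.16, -0.15 and -0.15, and Cox4i1, the isoform of subunit IV common to most tissues, at -0.10 (adjusted p = 0.0397). Cox7a2 (-0.10, adjusted p = 0.0576), Cox6b1 (-0.01) and Cox7a2l (-0.01) were not called.

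The complex IV isoforms restricted to particular tissues were dim, and 2 of the 8 restricted isoforms measured over all complexes were called, in opposite directions. Cox6a2, the muscle-type isoform that is also described in mouse parvalbumin interneurons, had 6.88, 7.13 and 7.42 in amygdala, against 6.39, 6.70 and 6.88 in hippocampus. The difference was 0.43 ± 0.07 (SE, limma adjusted p = 7.8e-05), the largest positive difference among the 84 genes, and the ranges met at 1 array of each tissue. Over 33 alternative settings the Cox6a2 difference ranged from 0.27 to 0.49, all with a call. Of 10 markers of parvalbumin and other interneurons, 6 were called higher and 3 lower in amygdala, with a median of 0.49, a summed intensity of 9927 to 11350 in amygdala and 6812 to 7981 in hippocampus, and no marker below a level of 6. Pvalb itself was among those called lower, at -0.99 (adjusted p = 8.2e-10), and the part of these markers in the Cox6a2 difference was not tested. Cox7a1, another muscle-type isoform, had 5.20, 5.54 and 5.87 in amygdala, against 5.31, 5.89 and 6.49 in hippocampus, a difference of -0.35 ± 0.12 (SE, adjusted p = 0.0306) between overlapping groups that was lost in 8 of 33 alternative settings.

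In complex V, 4 of 17 genes were called, all lower in amygdala, against 2 lower after centring and 2 lower and 1 higher after quantile normalization. Atp5c1 and Atp5d form part of the central stalk that turns inside the catalytic head. Atp5c1 had 11.53, 11.66 and 11.75 in amygdala, against 11.84, 11.93 and 12.04 in hippocampus, a difference of -0.29 ± 0.04 (SE, limma adjusted p = 5.2e-06) without overlap. Atp5d had 11.39, 11.51 and 11.63 in amygdala, against 11.61, 11.80 and 11.93 in hippocampus, a difference of -0.28 ± 0.05 (SE, limma adjusted p = 5.6e-05). The ranges of Atp5d touched, and its second probe set, at a mean level of 10.13, gave 0.11 (adjusted p = 0.0899) in the other direction. Atp5g1, of the rotating c ring, and Atp5pb, of the peripheral stalk, were called at -0.15 and -0.12. Atp5b (-0.11, adjusted p = 0.106) and Atp5a1 (-0.07, adjusted p = 0.207), both of the catalytic head, were not called.

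Cycs had 12.03, 12.23 and 12.26 in amygdala, against 12.25, 12.37 and 12.55 in hippocampus, a difference of -0.16 ± 0.04 (SE, limma adjusted p = 0.0067) with overlap at the edges. The only subunit encoded in mitochondrial DNA that was measured, ND5 of complex I, differed by -0.13 ± 0.05 (SE), or 0.03 after quantile normalization, and was not called (adjusted p = 0.0709). Of the 11 core catalytic and common subunits measured, 7 were called lower and 1 higher. The background shares were 13.1% lower and 17% higher over all genes, and 33.7% and 22.1% over genes at 10 or more. The core list was chosen with earlier results of these data known, so its count is no independent result.

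**Figure D2:**
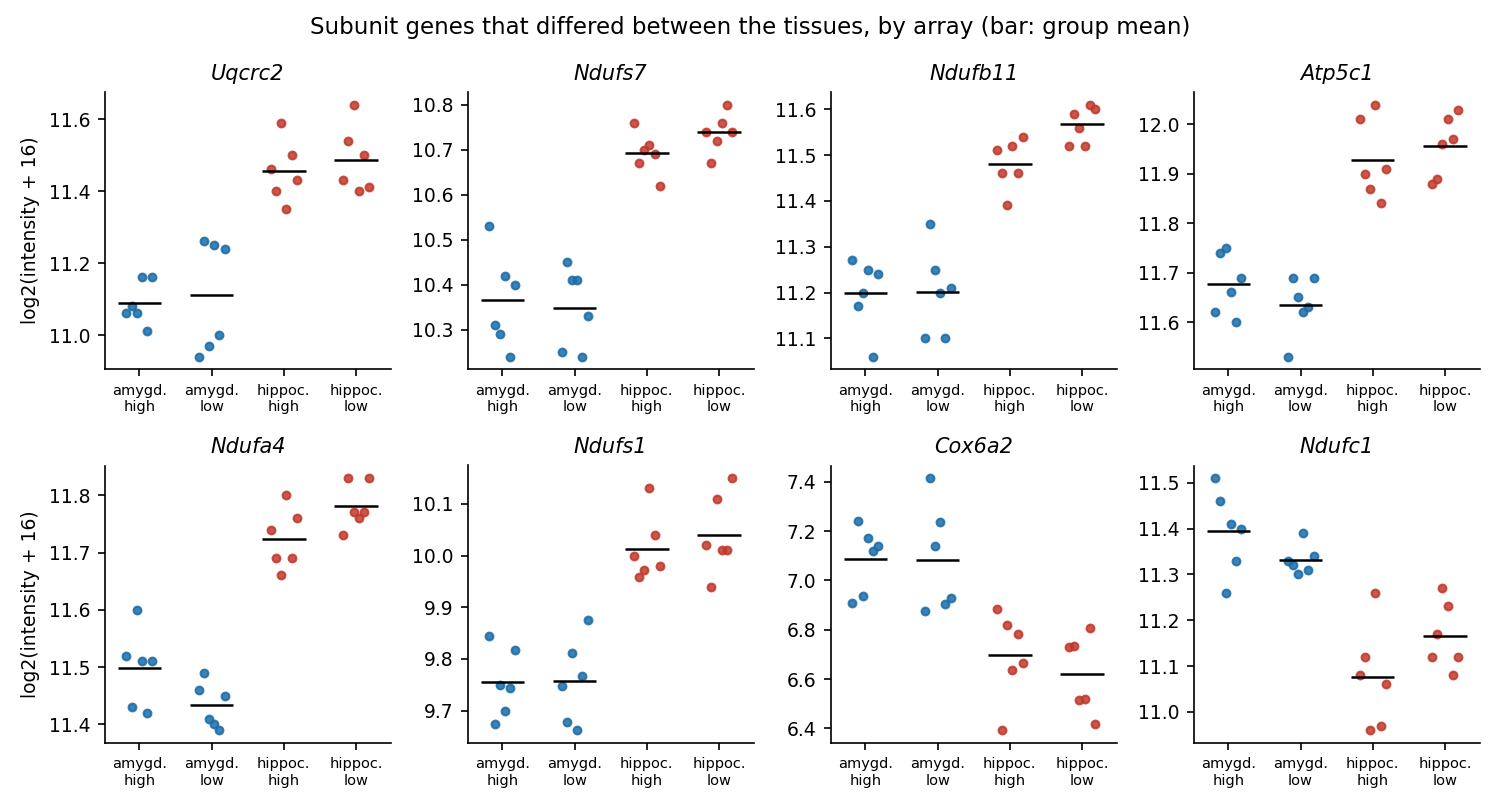
Level of 8 subunit genes on each of the 24 arrays, in log2(intensity + 16), with amygdala of the high and low line in blue and hippocampus of the high and low line in red, and bars at group means. The first 6 genes lie lower on every amygdala array than on any hippocampus array, while Cox6a2 and Ndufc1 lie higher in amygdala with a narrow overlap.

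Altogether 6 of the 84 genes had no overlap between the 12 amygdala and 12 hippocampus arrays, and all 6 were lower in amygdala (Uqcrc2, Ndufs7, Ndufb11, Atp5c1, Ndufa4 and Ndufs1). Over all genes 7.12% did not overlap, 3.09% being lower. Of the 31 called genes, 15 were called in all 33 alternative settings, namely these 6, Uqcr10, Uqcrfs1, Cox5a, Cox6c, Ndufb9 and Sdhd among the lower genes, and Cox6a2, Ndufc1 and Sdhc among the higher ones. Among 27 further probe sets at a level of 8 or more for the called genes, 23 had the sign of the brightest one and 11 were called too.

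The tissue difference was also fitted within each line. In the high line 19 genes were called, 5 higher and 14 lower in amygdala, against background shares of 22.1% in either direction, 12.5% higher and 9.67% lower over all genes, and 42.1%, 20.1% and 22% over genes at 10 or more. In the low line 20 genes were called, 1 higher and 19 lower, against 17.2%, 9.51% and 7.66% over all genes, and 39.5%, 13.3% and 26.2% over genes at 10 or more. The 12 genes called in both lines, of 19 and of 20, had the same direction in each. They were Ndufa4, Ndufb11, Ndufb9, Ndufs1, Ndufs7, Sdhd, Uqcr10, Uqcrc2, Uqcrfs1, Atp5c1 and Atp5d, all lower, and Cox6a2, higher. The share of all genes called in both lines is not given here, so the 12 have no background beside them. Ndufb11, Ndufs7, Uqcrc2 and Atp5c1 kept their call within each line in all 33 alternative settings. Some of the 33 only left out arrays of the other line. Those settings cannot change a difference within a line, only the shared spread, so 33 overstates the number of checks. Ndufb9 lost its high line call in 27 of 33, and Uqcrfs1 its low line call in 11. With all probe sets of a gene averaged, Uqcr10 lost its call in each line. Sdhd, Atp5d and Cox6a2 then lost theirs in the low line. Uqcrc2 differed by -0.37 in the high line and -0.38 in the low line, Ndufs7 by -0.33 and -0.39, and Cox6a2 by 0.39 and 0.46.

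The share of higher and lower calls moved with the scaling of the arrays. Over both lines it was 6 higher and 25 lower as deposited and 9 and 17 after quantile normalization. In the high line it was 5 and 14 as deposited and 9 and 7 after centring, and the median over all 84 genes was -0.03 as deposited and 0.031 after centring. In the low line it was 1 and 19 as deposited and 2 and 9 after quantile normalization, and the median was -0.12 as deposited.

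Other measures moved with tissue as well, and 17% of all genes were called higher and 13.1% lower. Of 10 neuronal markers, 5 were called lower (3 after quantile normalization) and 2 higher in amygdala, with a summed intensity of 28830 to 32090 on amygdala arrays and 32280 to 36560 on hippocampus arrays. Of 9 oligodendrocyte markers, 7 were called lower and 0 higher, with 11260 to 13830 in amygdala and 13490 to 19400 in hippocampus. None of the markers in either list was below a level of 6. Meningeal fibroblast markers were called lower for 8 of 10 genes and higher for 0, with 597.4 to 1426 in amygdala and 1490 to 2491 in hippocampus, and 5 of the 10 lay below a level of 6 in each line's amygdala. Astrocyte markers were called lower for 5 of 10 genes and higher for 3, with 17210 to 19660 in amygdala and 19440 to 21720 in hippocampus, while microglia markers were called higher for 4 of 9 and lower for 0. The 18S control probe set read 295.5 to 1525 in amygdala and 3600 to 7093 in hippocampus. Their part in the subunit differences was not tested.

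Genes that feed or assemble the chain did not share 1 direction between the tissues. The background for each list here and in the next paragraph is 30.1% called over all genes, 17% higher and 13.1% lower. Among genes at a level of 10 or more it is 55.8%. Of 16 genes of the citric acid cycle and pyruvate dehydrogenase, 10 were called lower (8 after either rescaling) and 2 higher in amygdala, with a median of -0.14. Among them Dlat, the acetyl-transferring subunit of pyruvate dehydrogenase, was lower by -0.38 (limma adjusted p = 2.6e-06) and Idh3g, of isocitrate dehydrogenase, by -0.28, while Ogdh, of the oxoglutarate dehydrogenase complex, was higher by 0.36 (adjusted p = 7.7e-06). Of 13 carriers and energy transfer genes, 5 were lower and 2 higher, led by Slc25a5 and Slc25a4, which exchange ADP for ATP, at -0.38 (adjusted p = 2.3e-08) and -0.26.

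In glycolysis, 5 of 13 genes were called higher and 2 lower, with Pfkp, a phosphofructokinase, at 0.37 (limma adjusted p = 1.0e-07), Ldha at 0.27 and Pgk1 at -0.30. Of 45 assembly factors, 6 were higher and 3 lower, against 17% and 13.1% over all genes. Atpaf2, needed to build the catalytic head of ATP synthase, was higher by 0.44 ± 0.08 (SE, adjusted p = 0.000186), and Acad9, a complex I assembly factor, was lower by -0.35 (adjusted p = 0.000396). Of 15 regulators of mitochondrial biogenesis, 3 were higher and 1 lower, with the transcription factors Nrf1 at 0.48 ± 0.08 (SE, adjusted p = 3.0e-05) and Gabpa at -0.24 (adjusted p = 0.0072).

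Promoter windows from the RefSeq tables of build GRCm38.p6, each running from 250 bases before to 50 after a gene start, were found for 68 of the 84 genes, 73 windows in all. Each window was searched on both strands for 4 motifs of regulators of nuclear-encoded respiratory genes. The NRF1 core GCATGCG was in 15.1% of the subunit windows and in 3.58% of all 32851 windows, the GABPA site GGAAGTG in 16.4% and 11%, the ERRA site AAGGTCA in 11% and 4.72%, and the YY1 core ATGGCGG in 13.7% and 4.05%. Of the 19 windowed genes that were called lower in amygdala, 2 held the NRF1 core and 1 each held the other motifs. Of the 49 other windowed genes, 9, 11, 7 and 8 held them. The stretches below are shown because they lie before the start of genes called lower in amygdala and hold a searched motif, which is in capitals. In Cycs and Cox6a1 the capitals cover overlapping matches on both strands. All are on the minus strand of GRCm38.p6, at chr19:4012906-4013005 for Ndufv1 (GABPA site), chr6:50566577-50566676 for Cycs (NRF1 core) and chr5:115349066-115349165 for Cox6a1 (NRF1 core).
Ndufv1: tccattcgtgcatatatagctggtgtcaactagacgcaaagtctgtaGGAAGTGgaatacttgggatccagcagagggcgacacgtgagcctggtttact
Cycs: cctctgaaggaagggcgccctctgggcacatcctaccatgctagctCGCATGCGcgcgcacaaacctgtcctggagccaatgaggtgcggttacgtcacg
Cox6a1: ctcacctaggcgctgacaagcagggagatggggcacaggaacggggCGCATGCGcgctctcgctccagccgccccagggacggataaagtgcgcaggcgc
These matches describe the letters only, and binding was not measured.

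The second question, which the breeding design poses, is how the subunits differ between the lines. In hippocampus 0 of the 84 genes were called, and 0.0165% of all genes were. The lowest adjusted p was 0.384. At an unadjusted p under 0.05 there were 8 of the 84 genes, a share near the 8.69% of all genes in either direction. All 8 were lower in the high line, and the share of all genes lower at this threshold is not given here. Levels were lower in the high line for 61 of the 84 genes, with a median difference of -0.05. The 61 became 74 after centring (median -0.11), 52 after quantile normalization (median -0.019) and 54 with all probe sets of a gene averaged (median -0.026). Genes at 10 or more as deposited had a median of -0.02, and 64.7% of them were lower. Centring lowered every gene of this comparison by the same amount, so the rise to 74 is a shift that other genes share. By complex, 28 of 36 genes were lower in complex I, 2 of 4 in complex II, 7 of 9 in complex III, 9 of 17 in complex IV and 14 of 17 in complex V, where the count was 17 after centring and 14 after quantile normalization. The complex II median was -0.01 as deposited and 0.03 after quantile normalization, where the other complexes kept a median below 0. After centring all complex medians were below 0, which the shared downward shift fixed in advance.

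The gene with the largest hippocampal difference was Atp5md, a small accessory subunit associated with dimers of ATP synthase. It had 10.76, 11.02 and 11.59 in the high line, against 11.25, 11.68 and 12.01 in the low line. The difference of -0.57 ± 0.17 (SE, 6 arrays each, limma adjusted p = 0.384) had a 95% interval of -0.94 to -0.21, stayed between -0.68 and -0.50 when any 1 array was left out, and the arrays overlapped. In amygdala the same gene differed by 0.06, with an interval of -0.21 to 0.34.

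Ndufb8, an accessory subunit of the membrane arm, had 10.67, 10.76 and 10.86 in the high line, against 10.80, 10.99 and 11.04 in the low line (difference -0.21 ± 0.07 SE, limma adjusted p = 0.429). Ndufa13, a complex I subunit also known as GRIM-19, had 11.74, 11.90 and 11.99 in the high line, against 11.95, 12.04 and 12.35 in the low line (difference -0.22 ± 0.09 SE, limma adjusted p = 0.494). Both overlapped between the lines. The other genes at an unadjusted p under 0.05 were Uqcr11 (-0.16), Ndufa5 (-0.14) and the ATP synthase subunits Atp5j2 (-0.15), Atp5l (-0.15) and Atp5j (-0.16), the last 3 from the membrane part and peripheral stalk.

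Sdhd (-0.14) and Ndufb2 (-0.13) followed them in order of p. Core subunits moved little, from -0.06 for Cox4i1 to 0.13 for Uqcrfs1. On the other side, the dim genes Cox8b (0.41 ± 0.33 SE) and Ndufb4 (0.26) and the bright gene Ndufa12 (0.24) were higher in the high line and were not called, and 9 of the 11 dim genes had positive differences. For Ndufb4, a brighter probe set that also reads its copies Ndufb4b and Ndufb4c was left out. No subunit gene separated the lines without overlap, and 0.654% of all genes did.

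**Figure D3:**
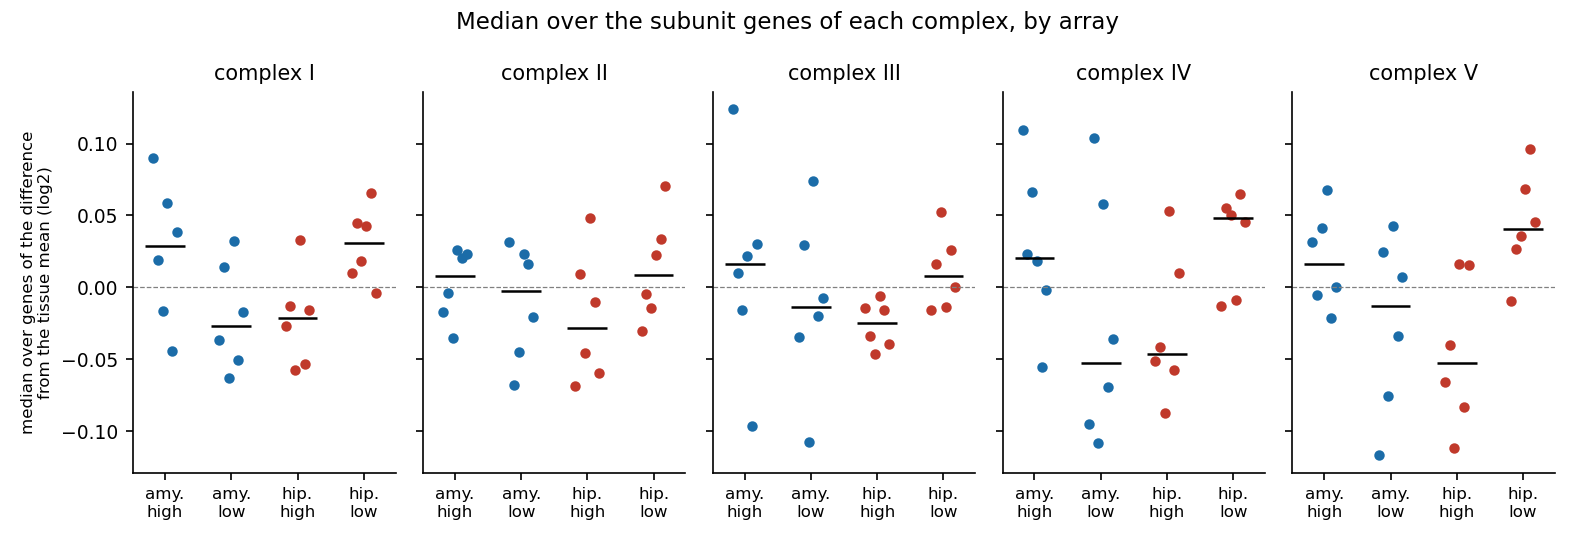
Median over the subunit genes of each complex with a level of 8 or more, as the difference from the tissue mean in log2, on each array of amygdala (blue) and hippocampus (red) of the high and low line, with bars at group medians. In hippocampus the high line lies below the low line in all 5 complexes as deposited, with overlapping arrays, and the spread between arrays is as wide as the shifts.

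Taken per array as the median over the 73 brighter genes, the high line hippocampus lay between -0.08 and 0.03 around the tissue mean, with a median of -0.04, and the low line between -0.002 and 0.06, with a median of 0.03. The 18S control probe set was also lower in the high line hippocampus, at 5195 ± 882 against 6702 ± 501 in the low line (SD, n = 6 each, exact two-sided permutation p = 0.0022, adjusted p = 0.0173 over 8 array measures), without overlap. Hippocampus markers were lower in the high line for 10 of 10 genes, with 0 called and a summed intensity of 9242 to 10240 in the high line and 10710 to 11830 in the low line. Meningeal fibroblast markers were higher for 9 of 10, with 0 called, 1 marker below a level of 6 in the high line and 2 in the low line, and a summed intensity of 2084 to 2491 in the high line against 1490 to 2096 in the low line. The part of these measures in the subunit differences was not tested.

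In amygdala 0 of the 84 genes were called, as were 0% of all genes, and 0 reached an unadjusted p under 0.05, against 5.63% of all genes. Levels were higher in the high line for 58 genes as deposited, with a median of 0.03, the same as the median of genes at 10 or more, of which 65.8% were higher. The 58 became 70 after centring (median 0.06), 48 after quantile normalization (median 0.008) and 50 without amygdala arrays 7 and 8 of the high line (median 0.02). Centring raised every gene of this comparison by the same amount, so the rise to 70 is a shift that other genes share. The complex medians lay between 0.01 and 0.04, and those of complexes II and III changed sign under quantile normalization. The lowest p belonged to Cox7c, a complex IV subunit read by a dim probe set, with 5.71, 6.05 and 6.27 in the high line against 5.91, 6.34 and 6.60 in the low line (difference -0.26 ± 0.13 SE, limma adjusted p = 0.768).

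Among the bright genes, Ndufs8, an iron-sulfur subunit of complex I, had 11.17, 11.22 and 11.29 in the high line amygdala, against 11.01, 11.10 and 11.18 in the low line (difference 0.12, limma adjusted p = 0.787). The 2 ranges met only at the edge. Ndufa12 differed by 0.23 in amygdala and 0.24 in hippocampus and was called in neither tissue. No subunit gene separated the lines in amygdala, where 0.44% of all genes did.

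Marker lists also leaned with line in amygdala, with 0 genes called in each of those named here. Levels were lower in the high line for 8 of 8 striatal markers, with a summed intensity of 4461 to 7518 in the high line and 4685 to 8330 in the low line. They were lower for 8 of 8 choroid plexus markers (725.1 to 13240 in the high line, 1638 to 14290 in the low line, 3 of 8 below a level of 6 in each) and for 8 of 10 meningeal fibroblast markers (597.4 to 1108 in the high line, 772.1 to 1426 in the low line). Astrocyte markers were higher for 9 of 10, or 7 after quantile normalization, with 17380 to 19660 in the high line and 17210 to 18360 in the low line. Their part in the subunit values was not tested.

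**Figure D4:**
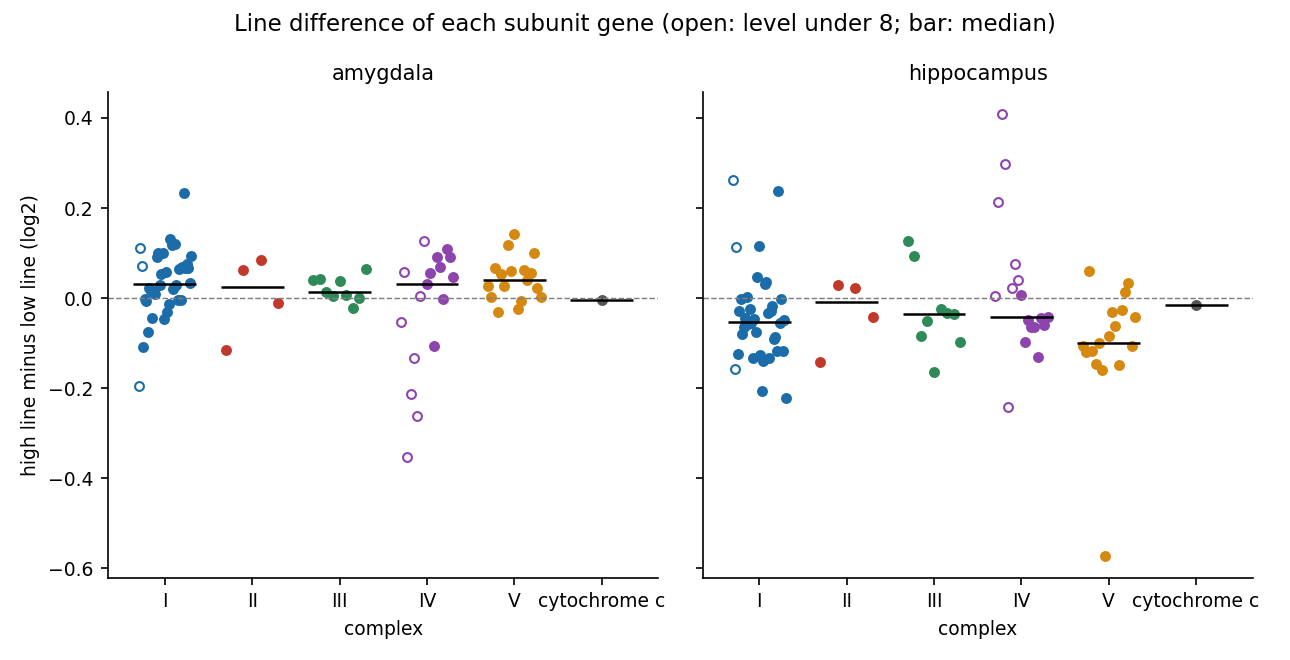
Difference between the high and the low line for each subunit gene by complex, in log2, in amygdala (left) and hippocampus (right), with open points for genes under a level of 8 and bars at the complex medians. Most hippocampal points of complexes I and V lie below 0, with Atp5md at -0.57, and most amygdala points lie near or just above 0.

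The third question is whether the line effect differs between the tissues, tested as the line difference in amygdala minus that in hippocampus. It was called for 0 of the 84 genes and 0% of all genes. At an unadjusted p under 0.05 there were 11 genes, 10 positive and 1 negative, against 7.01% of all genes in either direction. The share of all genes positive at this threshold is not given here. The difference was positive for 69 of 84 genes as deposited, 78 after centring and 49 after quantile normalization, with a median of 0.07 as deposited, and for 72.2% of genes at 10 or more, with a median of 0.05. All 17 complex V genes were positive as deposited, and 11 of 17 after quantile normalization, with medians of 0.12 and 0.05. Centring raised every gene of this comparison by the same amount, and the complex V median to 0.22. That all 17 stayed positive after centring was therefore fixed by the deposited values and is no separate support. The count of 78 holds the same shift. The medians of complexes II and III, 0.03 each as deposited, fell below 0 after quantile normalization.

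By p, the leading gene was Ndufs8, at 0.25 (limma adjusted p = 0.525), with 11.10, 11.20 and 11.29 in the high line hippocampus against 11.21, 11.33 and 11.43 in the low line. Atp5j, of the peripheral stalk, was at 0.28 (adjusted p = 0.581), Atp5md at 0.63 (adjusted p = 0.591) and Ndufa13 at 0.32 (adjusted p = 0.607). Atp5j2 (0.21) and Ndufb2 (0.23) were also positive, and Cox7a1 (-0.51) was the negative gene of the 11. Without a call, a difference of the line effect between the tissues was not shown for any of these genes.

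**Figure D5:**
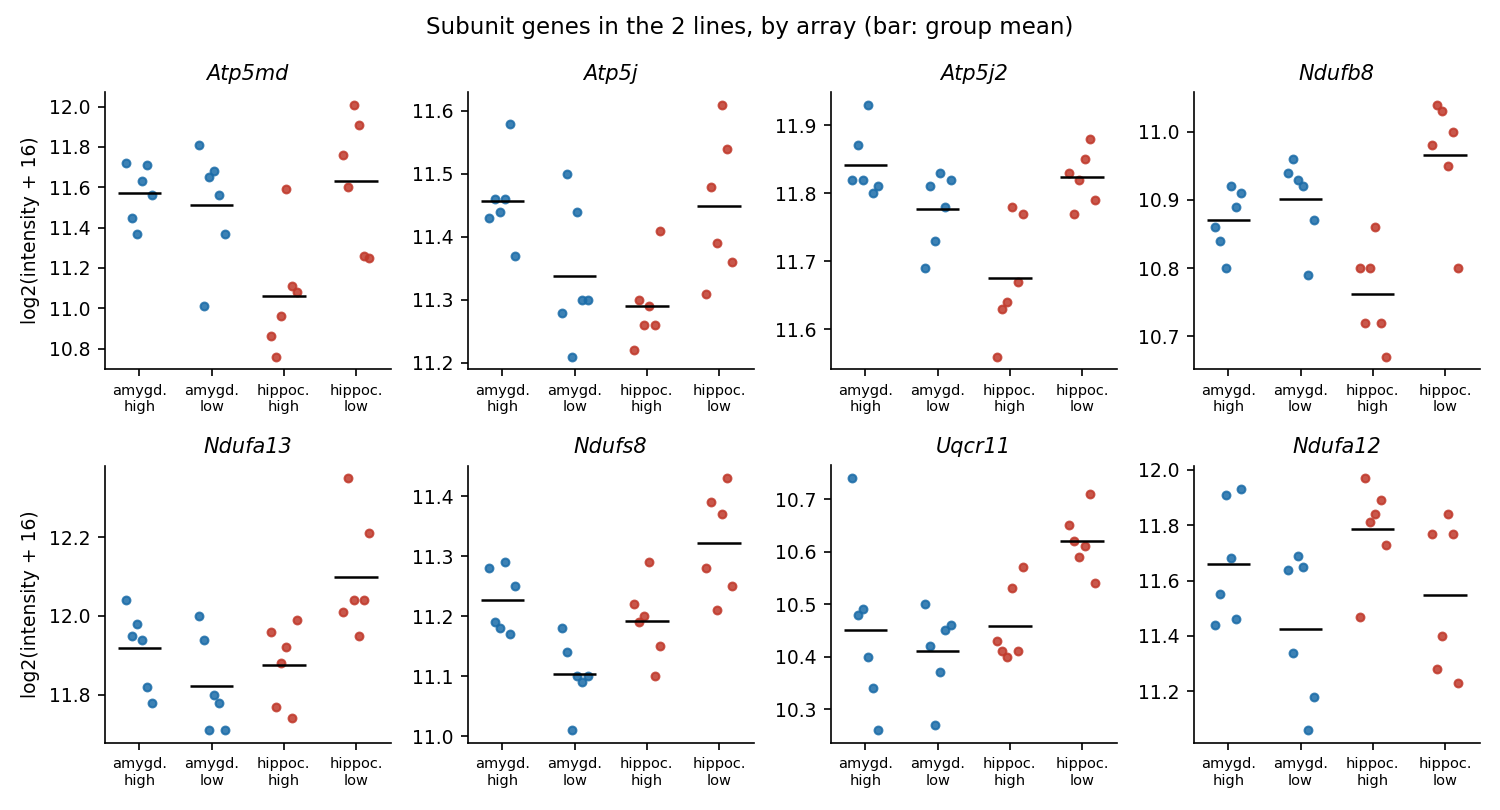
Level of 8 subunit genes on each array, in log2(intensity + 16), with amygdala (blue) and hippocampus (red) of the high and low line and bars at group means. Atp5md has its lowest values in the high line hippocampus, from 10.76 to 11.59, and every gene shown overlaps between the lines in hippocampus.

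Variation shared from array to array is given as a description, over 12 arrays of a tissue whose genes share the scaling of each array. After group means were removed, the mean pairwise correlation among the 73 brighter genes was 0.173 in amygdala and 0.141 in hippocampus, against 0.052 and 0.062 among genes at 10 or more. Complex IV had the highest values, 0.389 in amygdala and 0.358 in hippocampus, while complex III had 0.206 in amygdala and -0.036 in hippocampus. Cox6b1, Cox6a1 and Uqcrb each had a mean correlation with the other subunits of 0.262 to 0.384 across the 2 tissues. Uqcrfs1 was near or below 0 in both tissues, at -0.009 in amygdala and -0.263 in hippocampus.

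None of the other lists held a gene called between the lines. Lrpprc, which stabilises mitochondrial messenger RNA, had the lowest p among the regulators in both tissues, with a line difference of -0.61 in amygdala (limma adjusted p = 0.323) and -0.53 in hippocampus (limma adjusted p = 0.268). Timmdc1, a complex I assembly factor, differed by 0.34 in hippocampus and Slc25a5 by -0.19, both without a call.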

How the data were processed

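The authors deposited 1 linear intensity per probe set and array. Its signal algorithm is not given in the sources used here. On every array the mean intensity without the top and bottom 2% of probe sets was 150, so a scaling step had been applied. All 24 arrays were used, grouped by their labels. The 45037 probe sets other than 64 controls, of 45101, were tested as log2(intensity + 16), a scale that understates changes of dim genes. Symbols came from the platform annotation (34945 probe sets with 1 symbol, 932 with several, 9160 with none). For 34741 probe sets the symbol was then taken from RefSeq through the Entrez identifier, whether or not this changed it. Probe sets with several symbols were not named, which leaves out 10 that read subunits together with a copy or neighbour.

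Differences were fitted with limma 3.58.1 (lmFit, eBayes) in R 4.3.3: high minus low line over the 12 arrays of a tissue, and amygdala minus hippocampus and the difference of the line effect from 4 group means over 24 arrays. Array measures were compared by exact permutation (SciPy 1.17.1). The fits were also run on simulated data with independent noise per probe set and planted differences larger than most found here. Only the median size of the estimates was checked, so calls at the sizes found here were not tested. Alternatives were quantile normalization, median centring, pseudocounts of 1 and 64, a filter on the lowest 40% of probe sets, an intensity trend, the array number as a block, all probe sets of a gene averaged, doubted arrays left out and each array left out in turn.

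Named were up to 10 called genes per direction, otherwise the 10 of lowest p, the extremes of each complex, the core and restricted subunits, and up to 4 genes of other lists. The 84 genes and the lists were chosen with earlier results of these data known. Further called genes, second probe sets and Ndufs8 and Ndufa12 in single comparisons were named after their values were seen. The number of arrays limits the precision, since an array gives no count of molecules.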

Additional observations from a re-analysis of the deposited data

Results flagged for a closer look

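In groups of 6 arrays, 12 of 336 gene and group combinations held an array far from its nearest neighbour relative to the range of the group, and chance flags about 1 in 20 such groups. In amygdala of the high line these were Ndufb6 on array 9, at 11.07, and Uqcrq on array 7, at 10.47. In amygdala of the low line they were Atp5g2 and Cycs on array 1, at 10.49 and 12.03, Ndufa3 on array 4, at 11.36, and Cox8c on array 6, at 7.86. In hippocampus of the high line they were Cox6b2 on array 10, at 4.64, and Cox7b2 on array 7, at 6.15. In hippocampus of the low line they were Atp5a1 and Ndufv3 on array 6, at 11.77 and 10.78, Ndufa4l2 on array 2, at 4.51, and Ndufb1 on array 4, at 6.96. Of the 12 genes, Cycs was called between the tissues.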

How the results depend on the processing

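Of the 31 genes called between tissues, Uqcrb changed sign in 1 of 33 alternatives (all its probe sets averaged) and the others in 0. Among all 84 genes, called or not, the sign changed in at least 1 alternative for 18 genes between tissues, 25 between tissues within the high line, 18 within the low line, 37 for the hippocampus line difference, 43 for the amygdala one and 37 for the difference of line effects. The tissue call of 31 genes ranged from 25 to 33 when 1 array was left out (median -0.09 to -0.07), and was 26 after quantile normalization (median -0.032), 21 after centring and between 22 and 39 in the others. In the high line the count ranged from 16 to 20 (median -0.05 to -0.01), and centring gave a median of 0.031. In the low line it ranged from 15 to 21 (median -0.13 to -0.11), with 11 genes and a median of -0.045 after quantile normalization and 32 genes with an intensity trend. The line counts stayed at 0 in each alternative run. Leaving out 1 array gave medians of -0.06 to -0.04 in hippocampus, 0.02 to 0.05 in amygdala and 0.05 to 0.09 for the difference between tissues. Centring gave -0.11 in hippocampus and 0.17 for the difference between tissues, and quantile normalization gave 0.021 for the difference between tissues. The 18S difference ranged from -1676 to -1188. After group means were removed, same-numbered arrays of the 2 tissues correlated at -0.05 to 0.05, and 2 of 12 correlated best with their own number. The labels do not say whether a number marks 1 animal. These correlations cannot decide it, since they run over all probe sets and hold array noise. With the number as a block (replicate block), 22 genes were called between tissues, 16 in the high line, 14 in the low line and 0 for the difference between tissues. Without the doubted arrays these were 26, 13 and 0 for tissue, the high line and the difference between tissues.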
